A study of Mus musculus with 7 samples.

Results

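The 10 genes described here encode proteases of the lysosome, the acidic compartment in which cells break down proteins. They are cathepsins A, B, C, D, H, K, L, S and Z (Ctsa, Ctsb, Ctsc, Ctsd, Ctsh, Ctsk, Ctsl, Ctss and Ctsz) and legumain (Lgmn). The genes were taken by name, through the RefSeq accession that the array files give for each probe. They have 12 probes and are 10 of 20018 named genes on the array.

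RNA was measured on 7 one-colour arrays of dendritic cells, the cells that present antigen to T cells, grown in culture from sorted mouse common myeloid progenitors. The 3 arrays labelled knockout came from C57BL/6 mice of genotype Gata2(f/f)/ER-Cre, with a floxed Gata2 gene and a Cre recombinase activated by tamoxifen. The 4 control arrays came from C57BL/6 Gata2(f/f) mice, which carry the same floxed gene without the Cre. Both genotypes received tamoxifen between day 1 and day 10, and progenitors were sorted on days 20 to 22. All progenitors were then cultured with FLT3-L at 200 ng/ml on bone marrow feeder cells of SJL mice. Neither the promoter driving the Cre nor the way feeder cells were removed is stated. The labels do not tie replicates to different animals, and the spread behind each p-value may therefore be technical.

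Levels are log2 of the processed signal relative to the 75th percentile of each array, so a level of 5 is 5 doublings above that percentile, and differences are arrays labelled knockout minus control. Levels of different probes cannot be set against each other. The targeted gene went against the label: Gata2, a transcription factor of blood progenitors, had a level of 2.99 ± 0.06 in the arrays labelled knockout, against 0.17 ± 0.29 in the control arrays (SD, n = 3 and 4), a log2 difference of 2.82 (adjusted p = 0.000153, limma). Gata2 has 1 probe, whose place relative to the deletion is unknown here, and every direction below goes by the label. The share of spots well above background was 61.5% to 67.4% in the arrays labelled knockout, against 54.1% to 56.9% in the control arrays. All arrays shared 1 slide and 1 scan, but the groups lay in different rows of the slide, and row and genotype cannot be told apart.

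Cathepsins are made as inactive precursors, carried to endosomes and lysosomes mostly by the mannose 6-phosphate pathway, and activated there at acid pH. Most are papain-like cysteine proteases; cathepsin D is an aspartic protease, cathepsin A a serine carboxypeptidase, and legumain a cysteine protease that cuts after asparagine. In dendritic cells they cut antigens into peptides and remove the invariant chain (Cd74) from class II molecules, so that peptide can bind.

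None of the 10 genes passed an adjusted p of 0.05 in either direction. Over all 14549 genes tested, 1.38% were called lower and 1.49% higher in the arrays labelled knockout. The log2 difference was below 0 for 9 of the 10, against 58.0% of all genes. Differences of the 9 brightly measured genes, all but Ctsk, lay between -0.50 for Ctsl and -0.03 for Ctsd, with a median over the 10 genes of -0.26. Adjusted p over the 10 genes ran between 0.139 and 0.955. The 95% intervals of the 9 bright genes all ended above a log2 difference of -1, which is a halving; the lowest bound was -0.86, for Ctss. In bulk samples such as these, fewer cells of a type and less RNA per cell cannot be told apart.

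Ctsl and Ctss, cysteine endopeptidases that cut inside a protein chain, had the largest differences of the 9 bright genes. Ctsl had levels of 4.85, 5.03 and 4.58 in the arrays labelled knockout, against 5.34, 5.31, 5.36 and 5.26 in the control arrays. Every array labelled knockout was below every control array, by a gap of 0.23. Means were 4.82 ± 0.23 in the arrays labelled knockout and 5.32 ± 0.04 in the control arrays (SD, n = 3 and 4), and the log2 difference was -0.50 (95% interval -0.82 to -0.18, unadjusted p = 0.00706, adjusted p = 0.139, limma), a signal of 70.8% of control. Weighting arrays by their quality gave the same gene a log2 difference of -0.62 at an adjusted p of 0.0268.

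Ctss, the enzyme that completes invariant chain removal in antigen-presenting cells, had levels of 5.83, 5.90 and 5.53 in the arrays labelled knockout, against 6.06, 6.03, 6.51 and 6.30 in the control arrays. The groups did not overlap, with a gap of 0.13. Means were 5.75 ± 0.20 in the arrays labelled knockout and 6.23 ± 0.22 in the control arrays (SD, n = 3 and 4), and the log2 difference of -0.47 (95% interval -0.86 to -0.09) had an unadjusted p of 0.0222 and an adjusted p of 0.25 in limma. The signal was 72.1% of control. Lgmn, whose protease trims several cathepsins to their mature chains and cuts antigens, had levels of 3.96, 3.99 and 3.90 in the arrays labelled knockout, against 4.05, 4.46, 4.17 and 4.15 in the control arrays. The lowest control array stood 0.06 above the highest array labelled knockout, and the log2 difference was -0.26 (95% interval -0.57 to 0.05, adjusted p = 0.466, limma).

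Ctsk, the collagen-cutting cathepsin of osteoclasts, was near the lower end of the measurable range. Its levels were -4.34, -6.28 and -5.18 in the arrays labelled knockout, against -7.54, -6.22, -5.34 and -5.86 in the control arrays. The probe was well above background in all 3 arrays labelled knockout and in none of the 4 control arrays, so it passed the filter only through the first group. The lowest signal called well above background was -6.91 to -6.21 in the arrays labelled knockout, but -5.59 to -5.32 in the control arrays. Replicate 2 of the arrays labelled knockout thus counted at -6.28, while control replicate 2 did not at -6.22. The groups overlapped, and the ratio of their means can only be bounded. Means of -5.27 in the arrays labelled knockout and -6.24 in the control arrays put that ratio at 1.14-fold or more. The bound takes no account of the spread between arrays. The log2 difference had a 95% interval of -0.37 to 2.31 (adjusted p = 0.533, limma), so its direction was not settled. With normexp background correction the difference was 0.18. For that bound, each control array counted at its limit of measurement, the lowest signal called well above background there, or at the probe's own signal where that was higher. Of 6 osteoclast markers tested, 0 were called, and their summed linear signal relative to the 75th percentile was 2.48 to 2.98 in the arrays labelled knockout and 2.39 to 3.26 in the control arrays. Calcr, a defining marker of osteoclasts, was well above background in 0 of 7 arrays, while Ocstamp, Dcstamp, Oscar and Nfatc1 were in all 7. Acp5, the tartrate-resistant acid phosphatase of osteoclasts and macrophages, had levels of -3.99 ± 0.37 in the arrays labelled knockout and -2.98 ± 0.99 in the control arrays (SD, n = 3 and 4; adjusted p = 0.435, limma).

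The exopeptidases trim proteins from an end. Ctsb, which also cuts inside chains and takes dipeptides from the C terminus, had levels of 5.17, 4.89 and 4.95 in the arrays labelled knockout, against 5.30, 5.47, 5.37 and 5.13 in the control arrays. The groups overlapped, since replicate 1 of the arrays labelled knockout lay above control replicate 4. The log2 difference was -0.32 (95% interval -0.64 to 0, unadjusted p = 0.0496, adjusted p = 0.369, limma), or 80.2% of control. Ctsh, an aminopeptidase, had levels of 5.25, 5.01 and 5.29 in the arrays labelled knockout, against 5.31, 5.79, 5.36 and 5.32 in the control arrays. These groups were apart by 0.01 only, taken before rounding, and the log2 difference of -0.26 had an adjusted p of 0.565.

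Ctsz, a carboxypeptidase also named cathepsin X, had levels of 5.65, 5.56 and 5.58 in the arrays labelled knockout, against 5.78, 5.82, 6.04 and 5.77 in the control arrays. The groups did not overlap (gap 0.11), and the log2 difference was -0.25 (95% interval -0.54 to 0.03, adjusted p = 0.436, limma). Ctsc, a dipeptidyl peptidase that activates the serine proteases of immune cell granules, had levels of 4.62, 4.59 and 4.62 in the arrays labelled knockout, against 4.87, 4.91, 4.88 and 4.52 in the control arrays. Control replicate 4 lay below all 3 of the other group while the other 3 control arrays lay above them, and the log2 difference was -0.18 (adjusted p = 0.632, limma).

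The 2 genes of other catalytic classes have a second, dimmer probe each. Ctsa, the serine carboxypeptidase that also protects lysosomal beta-galactosidase and neuraminidase, had levels of 4.91, 4.53 and 4.56 in the arrays labelled knockout, against 4.72, 4.95, 5.11 and 4.74 in the control arrays, on its brighter probe. The groups overlapped and the log2 difference was -0.21 (adjusted p = 0.628, limma), while the dim probe gave 0.09 (adjusted p = 0.943 in the fit over all probes). Ctsd, the main aspartic protease of lysosomes, had levels of 3.85, 4.18 and 3.94 in the arrays labelled knockout, against 4.03, 4.08, 4.04 and 3.92 in the control arrays. The arrays of the 2 groups interleaved: the log2 difference was -0.03 (95% interval -0.33 to 0.27, adjusted p = 0.955, limma), a signal of 97.9% of control. Its dim probe gave 0.32 (adjusted p = 0.823), and other processing choices turned the sign of the bright one, to 0.09 with quantile normalization.

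**Figure D1:**
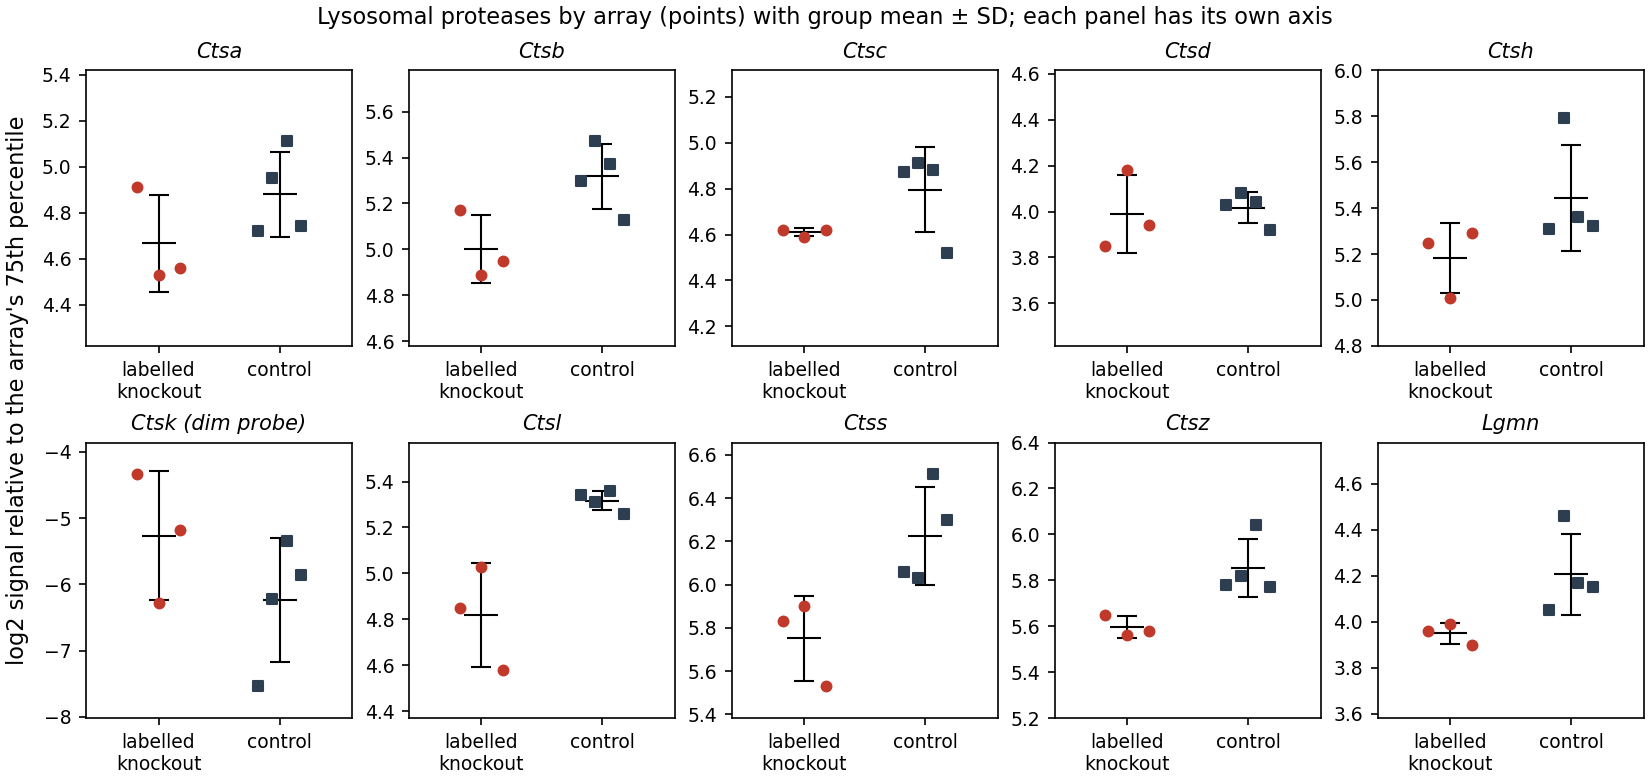
Level of each protease gene by array, as log2 signal relative to the 75th percentile of the array, with points for single arrays and bars for the group mean ± SD; the 3 arrays labelled knockout stand left of the 4 control arrays, and each panel has its own axis. Ctsh, Ctsl, Ctss, Ctsz and Lgmn have no overlap between groups, and Ctsd and Ctsk interleave. Of all genes, 8.04% had every array labelled knockout below every control array, and of the similarly bright genes 11.7%.

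Of the 10 genes, 5 (Ctsh, Ctsl, Ctss, Ctsz and Lgmn) had every array labelled knockout below every control array, a criterion added after the data were seen. Over all genes with a value on each array, 8.04% met it. The level of a probe bears on that share, because differences drifted with brightness. The median log2 difference was 0.02 at levels between -5 and -4, and -0.21 in the brightest bin of genes, at levels above 6. In the dimmest bin, at levels between -7 and -6, it was 0.26. That bin lay below the limits of measurement of the control arrays (-5.59 to -5.32) but reached those of the arrays labelled knockout (-6.91 to -6.21). Its genes could pass the filter more easily in the arrays labelled knockout, so its median is not free of that selection. Among the 2101 genes at least as bright as the dimmest of the 9 bright proteases, 84.1% had a log2 difference below 0, the median was -0.16, and 11.7% had groups apart in the same direction. By unadjusted p under 0.05, 3 of the proteases (Ctsb, Ctsl and Ctss) were lower, against 7.35% of all genes and 6.90% of the bright ones, and 0 were higher, against 6.14% of all genes.

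**Figure D2:**
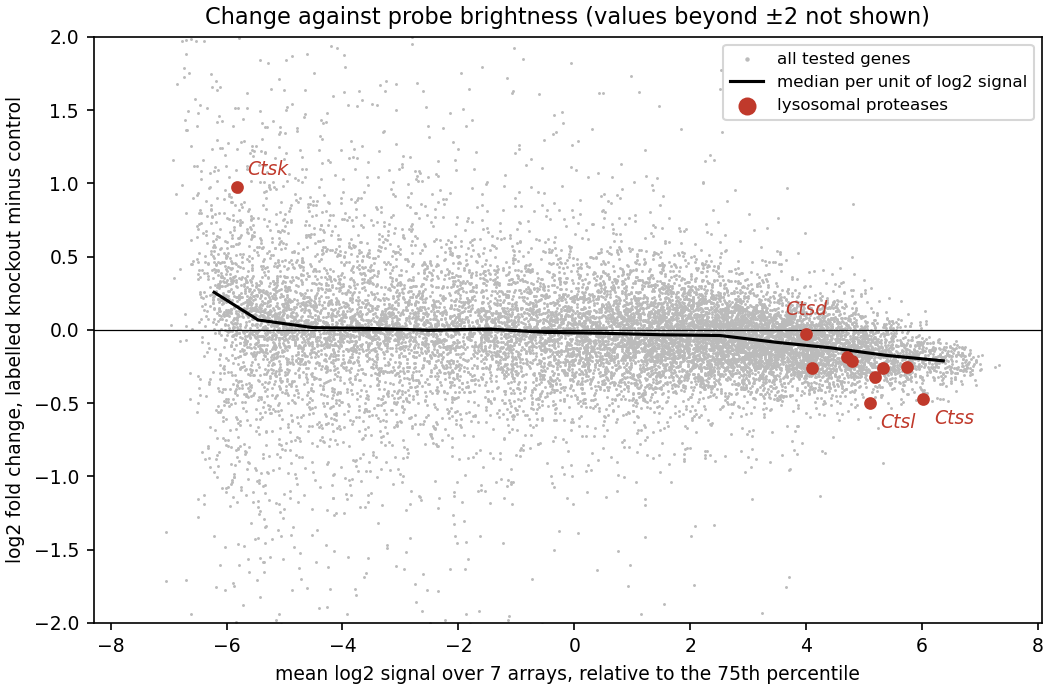
Log2 difference of each tested gene, arrays labelled knockout minus control, against its mean log2 signal over 7 arrays; grey points are genes, the line joins bin medians and the named points are the proteases. Differences beyond 2 in either direction are not drawn, and the line passes from 0.26 at the dim end to -0.21 at the bright end. Genes at the dim end could pass the filter more easily in the arrays labelled knockout.

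Set among those bright genes, Ctsl and Ctss lay near the low end and the others within the bulk. Of the 2101 genes, 1.19% had a lower log2 difference than Ctsl and 1.81% a lower one than Ctss. The share was 10.9% for Ctsb, 22.9% for Ctsh, 23.0% for Lgmn, 24.1% for Ctsz, 34.1% for Ctsa, 41.9% for Ctsc and 79.5% for Ctsd. Quantile normalization, which gives all arrays one distribution, left the bright genes at a median of 0.01 and the 9 proteases at -0.08. In that setting 8 of the 9 were still below 0, against 48.5% of the bright genes, and 0 had groups apart, against 3.82%. With normexp background correction the 2 medians were -0.15 and -0.25. There 8 of the 9 were below 0, against 83.2% of the bright genes. Groups were apart for 4 proteases (Ctsh, Ctsl, Ctss and Ctsz), against 10.0% of the bright genes.

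**Figure D3:**
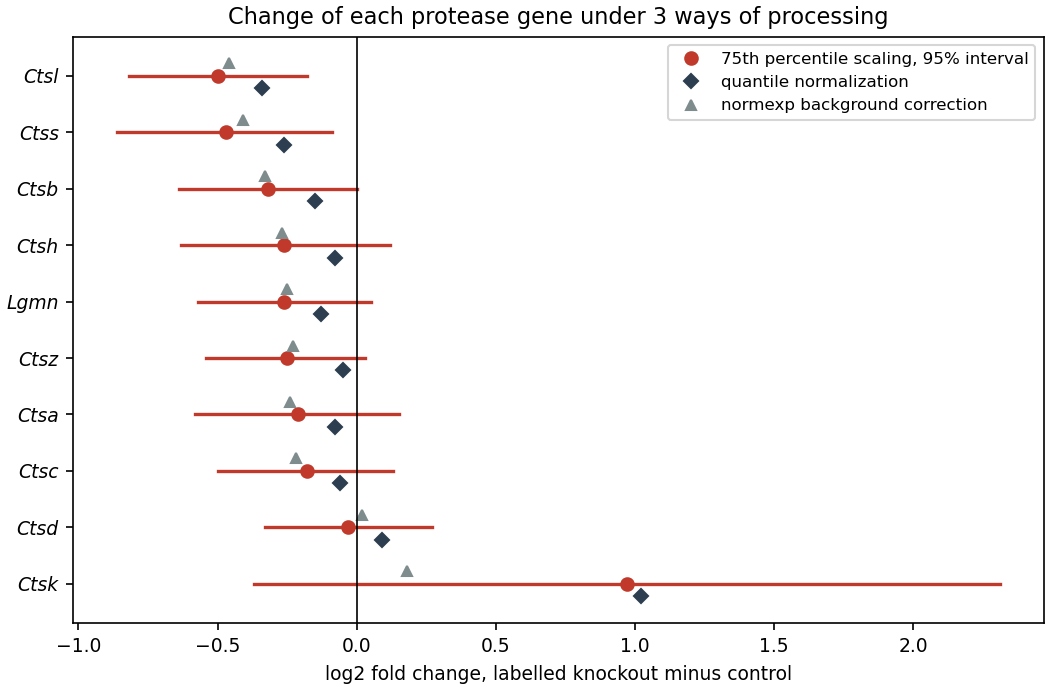
Log2 difference of each protease gene, arrays labelled knockout minus control, under 3 ways of processing, with bars for the 95% interval of the limma fit to signals set to the 75th percentile. In that fit the 9 bright genes lie between -0.50 and -0.03, and with quantile normalization their median is -0.08.

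The promoters of 4 of these genes are shown. Ctsl and Ctss stood at the low end of the range of differences, and Ctsd near 0. Ctsz was added because, among the windows, only its own held AGATAA or TGATAA. Other spellings of GATA factor motifs were not searched. Each window runs 5′ to 3′ from 250 bases before to 50 after the start of the gene, as given by RefSeq for build GRCm38.p6. Capitals mark matches, on either strand, to CACGTG or the longer TCACGTG that contains it, E-box motifs bound by TFEB and its relatives, to motifs bound by GATA factors, spelled AGATAA and TGATAA, or to GAGGAA, a motif of ETS factors such as PU.1. The windows are chr13:64370471-64370770 (minus strand) for Ctsl, chr3:95526536-95526835 (plus) for Ctss, chr2:174438990-174439289 (minus) for Ctsz and chr7:142387778-142388077 (minus) for Ctsd.
Ctsl: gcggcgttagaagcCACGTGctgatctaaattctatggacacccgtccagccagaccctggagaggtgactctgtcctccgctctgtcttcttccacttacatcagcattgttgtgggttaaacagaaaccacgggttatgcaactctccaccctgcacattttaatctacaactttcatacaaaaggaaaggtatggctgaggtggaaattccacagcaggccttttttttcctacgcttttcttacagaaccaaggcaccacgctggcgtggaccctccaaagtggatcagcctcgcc
Ctss: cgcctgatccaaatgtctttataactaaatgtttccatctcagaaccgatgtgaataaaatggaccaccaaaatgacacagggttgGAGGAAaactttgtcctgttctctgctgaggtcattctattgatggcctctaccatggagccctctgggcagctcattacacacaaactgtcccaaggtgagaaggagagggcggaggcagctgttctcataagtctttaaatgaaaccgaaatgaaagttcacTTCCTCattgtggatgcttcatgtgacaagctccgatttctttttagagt
Ctsz: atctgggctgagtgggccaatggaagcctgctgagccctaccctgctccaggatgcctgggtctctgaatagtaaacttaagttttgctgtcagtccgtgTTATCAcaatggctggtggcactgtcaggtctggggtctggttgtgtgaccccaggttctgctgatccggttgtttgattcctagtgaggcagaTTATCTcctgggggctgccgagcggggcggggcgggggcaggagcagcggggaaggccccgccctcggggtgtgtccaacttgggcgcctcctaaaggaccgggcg
Ctsd: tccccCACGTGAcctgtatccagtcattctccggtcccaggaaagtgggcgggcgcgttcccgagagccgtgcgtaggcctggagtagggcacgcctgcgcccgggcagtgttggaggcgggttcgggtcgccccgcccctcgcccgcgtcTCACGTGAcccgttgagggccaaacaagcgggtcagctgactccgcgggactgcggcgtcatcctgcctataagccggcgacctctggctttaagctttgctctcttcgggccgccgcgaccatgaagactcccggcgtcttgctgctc

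RefSeq windows were matched for 8 of the 10 genes, 10 windows in all, and those of Ctsb and Ctsh were not used here. CACGTG stood in 4 of the 10 windows, those of Ctsa, Ctsd, Ctsl and Lgmn, and in 7.15% of all 32851 promoter windows of that length. TCACGTG stood in 3 of the 10, of Ctsa, Ctsd and Lgmn, and in 3.77% of all. Ctsa and Lgmn each had a further window without either motif. AGATAA and TGATAA both stood in Ctsz, against 11.2% and 9.05% of all windows. GAGGAA stood in Ctsc, Ctsk and Ctss, against 28.3% of all. Genes with CACGTG had log2 differences between -0.50 (Ctsl) and -0.03 (Ctsd), so they covered the whole range of the bright proteases. Ctsk and Ctss lie side by side on chromosome 3, with 1 lncRNA gene between them in that annotation.

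Among 14 further genes named cathepsin, most of them expressed in placenta in the mouse, 5 were tested and 1 passed. Ctsw, a cysteine protease of cytotoxic lymphocytes, had levels of -1.11, -1.0 and -0.73 in the arrays labelled knockout, against -1.95, -2.07, -2.03 and -1.70 in the control arrays. The groups did not overlap and Ctsw rose by a log2 difference of 0.99 (adjusted p = 0.0111, limma). The call was lost without replicate 3 of the arrays labelled knockout (adjusted p = 0.0613). Ctse, an aspartic protease of endosomes, had a log2 difference of -0.80 (adjusted p = 0.088), and Ctsg, a serine protease of neutrophil granules, -0.32 (adjusted p = 0.461).

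Of 14 inhibitors of cysteine cathepsins, 11 were tested, 1 was called higher and 0 lower. Cst3, cystatin C, the main secreted inhibitor, had levels of 6.20, 5.98 and 5.93 in the arrays labelled knockout, against 6.43, 6.52, 6.77 and 6.32 in the control arrays. The groups were apart, and the log2 difference of -0.47 was close to that of Ctss but had an adjusted p of 0.188 in limma. Cstb, the cytosolic inhibitor cystatin B, had a log2 difference of -0.55 (adjusted p = 0.122). Ctla2a and Ctla2b, which resemble the propeptide of cathepsin L, had 0.59 (adjusted p = 0.158) and 0.54 (adjusted p = 0.0981). The choice of these 3 inhibitors was made with their values in view. The call was Cst8, a cystatin known from the epididymis, at mean levels of -6.26 in the arrays labelled knockout and -7.42 in the control arrays (adjusted p = 0.0454). It was measured above background in 0 of 4 control arrays, no ratio can be given, and 8 of 17 alternatives lost the call. The count of inhibitors called higher changed in 15 of 22 alternatives, between 0 and 3, and that called lower in 1, to 2 without the filter.

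**Figure D4:**
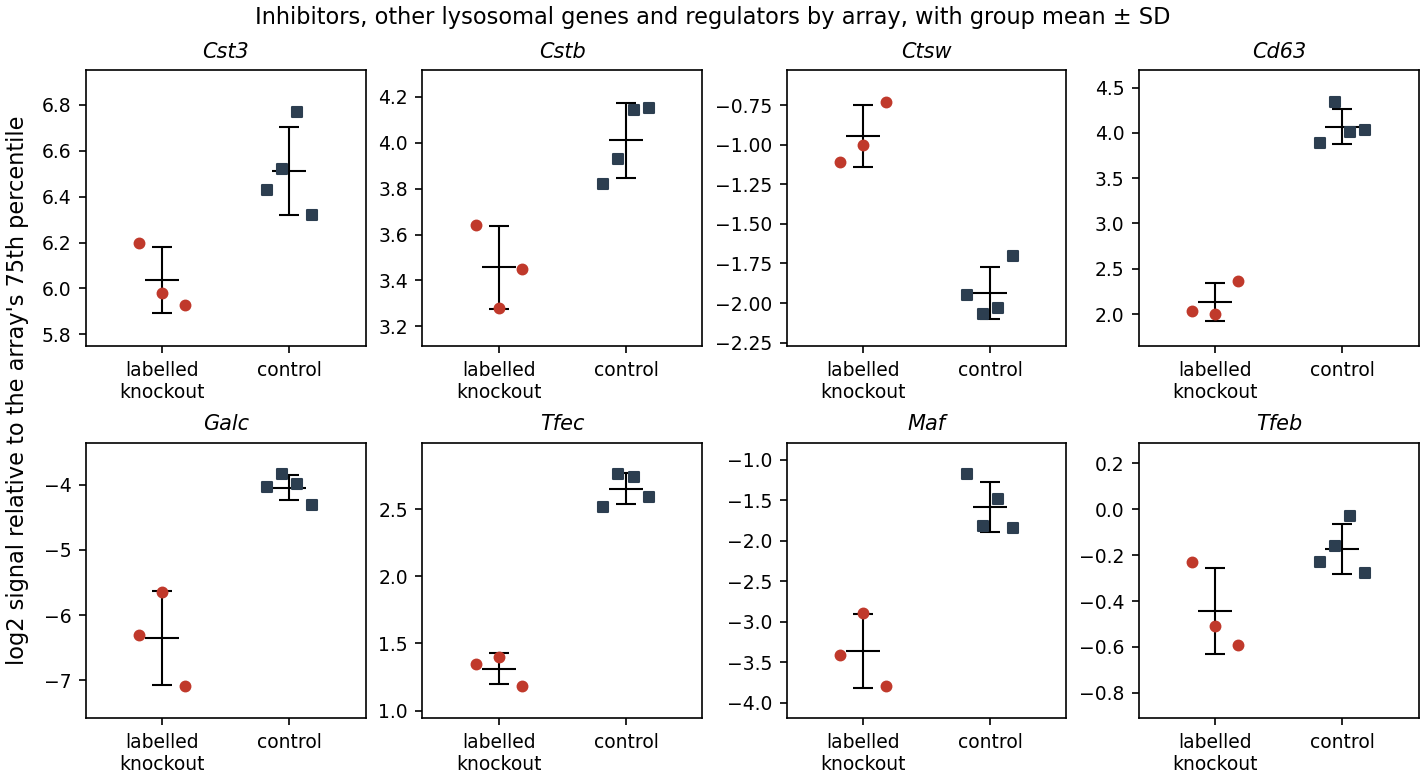
Levels by array of genes related to the proteases, as log2 signal relative to the 75th percentile, with points for single arrays and bars for the group mean ± SD; the 3 arrays labelled knockout stand left of the 4 control arrays, and axes differ between panels. Cd63, Tfec and Maf have groups far apart, while Cst3 is apart by less than its log2 difference of -0.47.

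Few other soluble lysosomal enzymes passed. Of 8 further peptidases and the thiol reductase, 0 passed and the median log2 difference was -0.26; Cpq, a plasma and lysosomal carboxypeptidase, had -0.60 (adjusted p = 0.124) and Aga, which cleaves glycoasparagine, -0.33 (adjusted p = 0.364). Of 28 glycosidases, sulfatases, lipases and phosphatases, 1 was called lower and the median was -0.16. The call was Galc, which removes galactose from myelin lipids, at -6.35 ± 0.72 in the arrays labelled knockout and -4.05 ± 0.20 in the control arrays (SD, n = 3 and 4; log2 difference -2.31, adjusted p = 0.00608, limma). Only 1 of the 3 arrays labelled knockout measured it well above background, so the size of the Galc difference is uncertain; over 20 alternatives it lay between -2.66 and -1.27, with -1.27 under normexp and -1.44 under a common signal floor, and the call was kept. Of 4 activator and lipid transfer proteins none passed; Psap, the precursor of the saposins, had -0.53 (adjusted p = 0.263) and Gm2a, the GM2 activator, -0.34 (adjusted p = 0.682).

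Lysosomal membrane proteins held 1 call in 11 tested, with a median of -0.32. It was Cd63, a tetraspanin of late endosomes and of mast cell and basophil granules, with levels of 2.03, 2.00 and 2.37 in the arrays labelled knockout, against 3.89, 4.34, 4.01 and 4.03 in the control arrays. Cd63 fell by 1.94 on the log2 scale (adjusted p = 0.000451, limma), the groups being more than 1 apart. Markers of mast cells and basophils moved with it: 5 of 6 tested were called lower, and their summed signal was 7.23 to 10.3 in the arrays labelled knockout, against 17.4 to 28.8 in the control arrays. Kit, not called (log2 difference -0.20, adjusted p = 0.688, limma), gave most of that sum in the arrays labelled knockout, at levels of 2.70, 3.29 and 2.76. Ms4a2, a defining marker, was well above background in 0 of 3 arrays labelled knockout, Fcer1a in 2, and Cpa3, Mcpt8, Prss34 and Kit in all 3. The part of mast cells and basophils in the Cd63 result was not tested. In the vacuolar proton pump, which acidifies the lysosome, 0 of 17 passed with a median of -0.23, Atp6v0b at -0.45 (adjusted p = 0.286) and Atp6v0e at -0.44 (adjusted p = 0.168). Among 10 sorting genes 0 passed, with a median of -0.08; Igf2r, the large mannose 6-phosphate receptor, had 1.53 (adjusted p = 0.231) and Gga1, an adaptor of that route, -0.28 (adjusted p = 0.483).

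**Figure D5:**
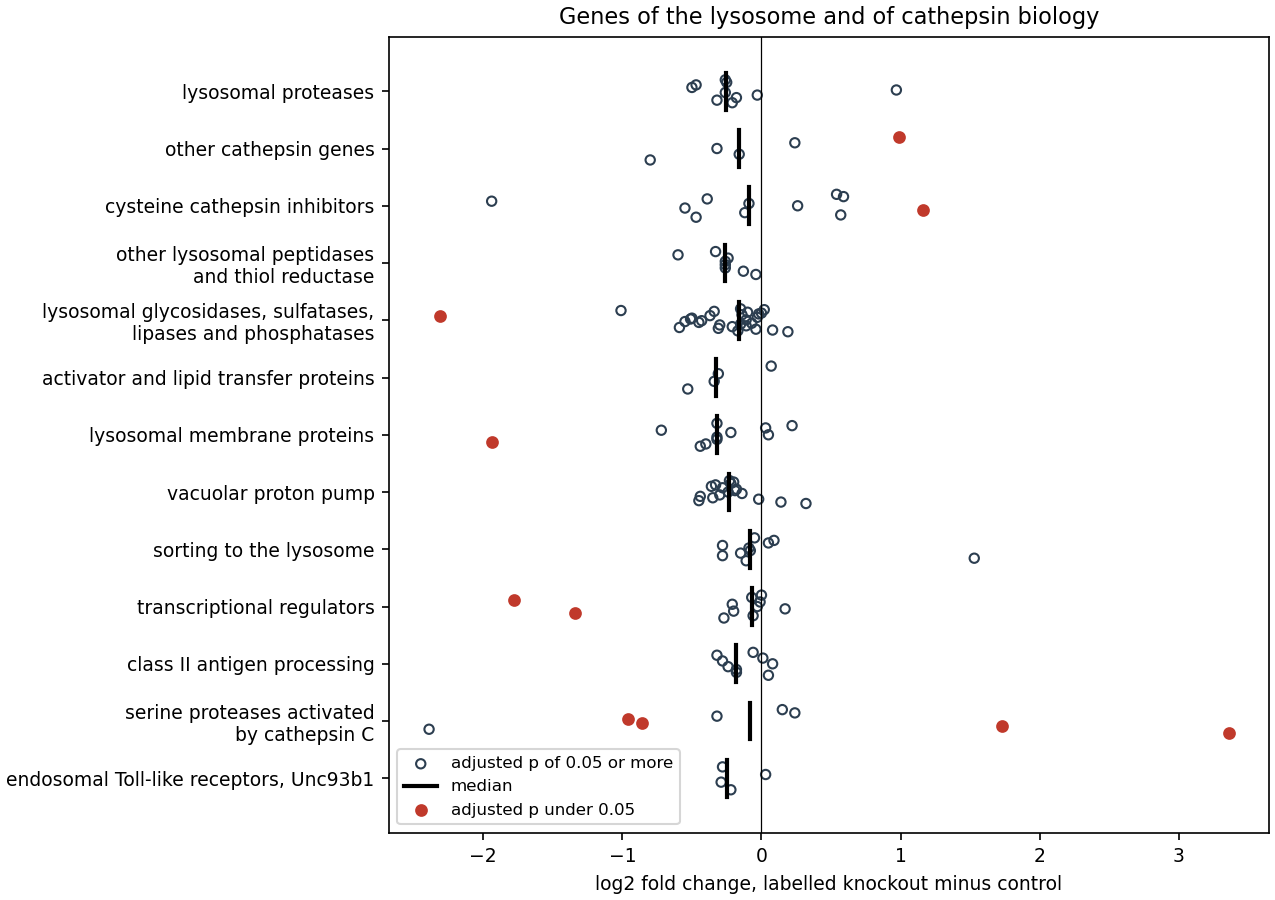
Log2 difference, arrays labelled knockout minus control, of each tested gene of the 10 proteases and of 12 lists of related genes, 1 row per list, with a bar at each median. Medians lie between -0.33 and -0.07, and filled points are genes that passed the test, such as Cd63 at -1.94 and Gzma at 3.36; Cst8 is drawn at its fitted value although its control arrays were not above background.

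Of 11 transcriptional regulators tested, 2 were called lower and 0 higher, with a median of -0.07. Tfec, the myeloid member of the MiT family, had levels of 1.35, 1.40 and 1.18 in the arrays labelled knockout, against 2.52, 2.76, 2.74 and 2.59 in the control arrays, without overlap. Tfec fell by 1.34 on the log2 scale (adjusted p = 0.00106, limma). Tfeb, the family member that drives lysosomal genes, had levels of -0.44 ± 0.19 in the arrays labelled knockout and -0.17 ± 0.11 in the control arrays (SD, n = 3 and 4; log2 difference -0.27, adjusted p = 0.456), and Mitf and Tfe3 had -0.20 and -0.06. Maf, a transcription factor of macrophages and lymphocytes, had levels of -3.41, -2.89 and -3.80 in the arrays labelled knockout, against -1.18, -1.82, -1.49 and -1.84 in the control arrays. The groups did not overlap, and Maf fell by 1.78 on the log2 scale (adjusted p = 0.00765, limma).

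Macrophage markers moved in the same direction as Maf. Of 6 monocyte or macrophage markers tested, 3 were called lower (Adgre1, C1qc and Cd14), C1qc being well above background in only 1 of 3 arrays labelled knockout. The summed signal of all 6 was 51.5 to 62.4 in the arrays labelled knockout, against 65.1 to 83.0 in the control arrays. Csf1r, not called (log2 difference -0.30, adjusted p = 0.472, limma), gave most of that sum. Mertk, a defining marker, was not tested, being well above background in 0 of 3 arrays labelled knockout and 1 of 4 control arrays, nor was C1qa, at 1 of 3 and 1 of 4 in the same groups. Such cells are rich in cathepsins, and their part in the differences of the proteases was not tested. Neutrophil markers had 1 of 7 called lower, with sums of 32.1 to 45.3 in the arrays labelled knockout and 50.1 to 59.4 in the control arrays. Mpo, not called (log2 difference -0.46, adjusted p = 0.146, limma), gave most of those sums. All 7 had a log2 difference below 0, with a median of -2.21, against 58.0% of all genes. The arrays labelled knockout were uneven, as for S100a8 at -0.18, -3.17 and -3.34. Erythroid and megakaryocyte markers had 1 of 4 called lower (26.4 to 31.8 in the arrays labelled knockout, against 42.4 to 64.8 in the control arrays). Dendritic cell markers had 0 of 10 called, with sums of 216 to 265 in the arrays labelled knockout and 244 to 293 in the control arrays, and Flt3 was at 5.04 ± 0.07 in the arrays labelled knockout and 5.01 ± 0.10 in the control arrays (SD, n = 3 and 4); Xcr1 was not tested, being well above background in 1 of 3 arrays labelled knockout and 0 of 4 control arrays. Stromal and endothelial markers had 0 of 4 called, with sums of 2.91 to 4.08 in the arrays labelled knockout and 2.27 to 2.60 in the control arrays. The defining Col1a1 and Cxcl12 were well above background in 0 of 7 arrays, while Col1a2, Pdgfrb, Pecam1 and Cdh5 were in all 7.

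The substrates and partners of the proteases were read last. In class II antigen processing, 0 of 9 genes passed, with a median of -0.18; Cd74, the invariant chain, had a log2 difference of 0.05, H2-Ab1, the class II beta chain, -0.32 (adjusted p = 0.41) and H2-Ob -0.28 (adjusted p = 0.483). Of the endosomal Toll-like receptors that cathepsins or legumain cut, with their chaperone, 0 of 4 passed; Tlr7 had -0.29 (adjusted p = 0.583) and Unc93b1, the chaperone, -0.28 (adjusted p = 0.359). Of the serine proteases that Ctsc activates, 8 of 10 were tested, 2 were called higher and 2 lower. Gzma, granzyme A of cytotoxic lymphocytes, had levels of -0.38, -0.67 and -0.64 in the arrays labelled knockout, against -4.81, -2.74, -4.77 and -3.39 in the control arrays, a log2 difference of 3.36 (adjusted p = 0.00942, limma). Gzmc had 1.73 (adjusted p = 0.0246), while Prtn3 and Elane, neutrophil granule proteases, had -0.96 (adjusted p = 0.0287) and -0.86 (adjusted p = 0.0352). Each of those last 3 calls was lost in 7 of 21 alternatives, and Gzma kept its call in all 21. Gzmb, a further granzyme of that list, was not called and had the opposite sign to Gzma and Gzmc (log2 difference -2.39, adjusted p = 0.234, limma). Of 4 natural killer cell markers, 2 were tested: Gzma itself and Prf1, perforin, which had a log2 difference of -0.16 (adjusted p = 0.722, limma). The defining Ncr1 was measured above background in 0 of 7 arrays. Neutrophil sums, given above, include Elane. T cell markers had 0 of 5 called, at 4.16 to 5.92 in the arrays labelled knockout and 3.64 to 4.80 in the control arrays. The part of such cells in the Ctsw and granule protease results was not tested.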

How the data were processed

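RNA of 3 arrays labelled knockout and 4 control arrays was amplified before Cy3 labelling, per the labels' protocols. Each array file holds spot intensity deposited by the authors, per the file headers from version 10.7.3.1 of Agilent Feature Extraction, with 62976 spots (3671 controls, 0 saturated). The deposited series table holds log2 values centred per probe, as found by comparison, and served as an alternative.

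Log2 of the processed signal had the 75th percentile of non-control spots subtracted, without spots marked as outliers, and repeated spots of a probe were averaged. Tested were 34133 of 55681 probes, those called well above background in 3 or more of the 7 arrays. A probe that stood for a gene also needed at least 2 values per group. Of all probes, 26413 (47.4%) were named by RefSeq accession in GRCm38.p6. A gene is its tested probe of highest mean signal. Groups were compared with lmFit and eBayes (limma 3.58.1, R 4.3.3), adjusted by Benjamini-Hochberg over 14549 genes; the fit was tested on simulated data. The number of arrays limits the precision.

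The members and lists were chosen with earlier results of these data known. Named by rule are Gata2, the 10 genes, up to 4 passing genes of each list per direction or else its 2 largest changes, and Cst3, Tfeb and Acp5; others named were chosen after their values were seen. One gene of the lists is not reported here and is left out of their counts. Normexp used the median signal, since a mean signal was not used here. Alternatives covered background correction, normalization, filters, floors, variance model, array weights, probe rule, threshold, replicate block and each array left out.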

Additional observations from a re-analysis of the deposited data

Results flagged for a closer look

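Among 12 groups of 4 control values of the protease probes, 2 held an array that stood apart from the other 3 by Dixon's ratio of gap to range, above its 95% critical value; chance alone marks about 1 in 20 such groups. For Ctsc, control replicate 4 was low at 4.52, against 4.87 for the nearest and 4.91 for the farthest of the other control arrays, a ratio of 0.9. For Ctsh, control replicate 2 was high at 5.79, against 5.36 for the nearest and 5.31 for the farthest, a ratio of 0.894.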

How the results depend on the processing

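No protease gene was called under any alternative except Ctsl, 1 call lower, with array weights; leaving out each array in turn gave 0 calls higher and 0 lower among the proteases. By groups that do not overlap, 5 were lower, against 8.04% of all genes and 11.7% of the bright ones, and 0 were with quantile normalization. The median log2 difference of the proteases was -0.08 with quantile normalization, and -0.29 to -0.18 when each array was left out in turn. Ctsa turned to 0.09 with the probe of largest interquartile range. Ctsd turned to 0.02 with normexp, 0.09 with quantile normalization, 0.32 with the probe of largest interquartile range, 0.15 with the mean of its probes and 0.04 without replicate 1 of the arrays labelled knockout, in a range of -0.12 to 0.04 as each array was left out. Over all genes, 217 were higher and 201 lower; counts were 365 and 2483 without the filter, 380 and 374 with array weights, 108 and 96 at an adjusted p of 0.01, 0 and 6 among the bright genes alone, and 195 and 288 with normexp. Leaving out each array in turn gave 88 to 225 higher and 105 to 179 lower, lowest without replicate 3 of the arrays labelled knockout (88 and 105). With the replicate block, 86 were higher and 95 lower. Same-numbered arrays deviated with correlations of -0.0975, -0.17 and -0.0486, and differently numbered ones with correlations of -0.195 to 0.231. So few arrays cannot settle whether the numbers pair them. With the block, Ctsw had an adjusted p of 0.0882 and Maf 0.0675, and neither passed. The cause of these changes was not tested. Galc, Cd63, Tfec and Gzma stayed past the threshold under every alternative that tested them.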

Other observations

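Arrays of a group took unequal shares of the extremes over the 9 bright proteases. Control replicate 4 was the lowest control array for 5 of the 9 genes and the highest for 0, while control replicate 2 was the highest for 5 and the lowest for 1. Among the arrays labelled knockout, replicate 3 was the lowest for 3 genes and the highest for 1, and replicate 2 was the lowest for 5 and the highest for 4. The 9 genes share each array's scaling, so these counts are a description.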
